A study of Mus musculus with 41 samples.

Results

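A group of 10 classical target genes of the transcription factor p53 were followed in mouse melanomas after their driving oncogene was switched off: Cdkn1a, Mdm2, Ccng1, Fas, Sesn1, Trp53inp1, Phlda3, Zmat3, Btg2 and Gtse1. They were taken by symbol, as every probe set that names only that gene. This gave 20 probe sets for the 10 genes, out of 18194 genes measured, and 19 of these probe sets passed the filter on low values. The exception was 1 of the 3 probe sets of Mdm2.

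p53 is a transcription factor that cells stabilise when DNA is damaged, when an oncogene is overactive or when nutrients run short. Its targets stop the cell cycle, repair DNA, trim metabolism or kill the cell, and Mdm2, itself a target, marks p53 for degradation and so closes a feedback loop. In melanocytes the Arf protein of the Cdkn2a locus holds Mdm2 in check, so tumours that lose this locus can keep an intact p53 gene whose protein is poorly stabilised. Many of these genes also answer to other factors, such as FOXO proteins, growth factor signalling and the cell cycle itself, so their levels are not a measure of p53 alone.

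The tumours came from iBIP mice, a model in which melanomas grow while doxycycline in the drinking water keeps an oncogenic BRAF transgene on. The labels give the strain only as iBIP and list no allele and no driver promoter. In the published model the engineered changes include inducible BRAF and loss of Ink4a/Arf, which is the Cdkn2a locus, and every group, day 0 included, would carry the same changes. RNA came from trimmed tumour tissue, which holds host cells beside tumour cells, and 41 tumours were measured on Affymetrix arrays. Tumours on doxycycline, day 0, numbered 4. After its withdrawal, days 1, 2 and 3 were sampled with 7, 5 and 6 tumours, days 6 and 9 with 4 and 3, and days 16 and 29 with 1 each. A further 10 tumours, called late tumours here, were taken from day 63 to day 163. The labels do not say whether tumours came from separate mice, so p-values measure the spread between these tumours.

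All levels are log2 intensities of 1 probe set, so they show changes of a gene between tumours and not how 2 genes compare. In bulk tissue, fewer cells that express a gene and less RNA per cell cannot be told apart. The median deposited intensity of an array lay between 51.8 and 57.4, so the arrays were scaled alike. The levels of spiked-in control RNAs split the arrays into 3 sets. All day 0, day 9, day 16 and day 29 tumours and 2 late tumours were in the third set, 6 of 7 day 1 tumours and 8 late tumours in the second, and all tumours of days 2, 3 and 6 in the first. The gap between the 3′ and 5′ control probe sets of Gapdh, which widens as RNA degrades, was 0.29 to 4.40 (log2) in late tumours against 0.35 to 0.58 at day 0, and it was above 2 in 8 of 10 late tumours and in 1 day 9 tumour. Of the melanocyte lineage markers, Sox10 averaged 10.06 in late tumours and 10.26 at day 0, and Mitf 8.96 in late tumours and 7.74 at day 0. Of the 8 tested markers of this list, 3 were higher in late tumours and 0 lower by limma at adjusted p under 0.05. Their median log2 fold change was 0.42, and 26.3% of all tested genes were higher. The share of tumour cells in the tissue was not tested. Tyr and Gpr143 did not pass the filter. Cdkn2a did not pass it either, with a mean of 4.93 ± 0.14 in late tumours (SD, n = 10) and 5.03 ± 0.07 at day 0 (SD, n = 4). Whether its probe set lies in a deleted part is not known. Trp53 itself was not analysed here.

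The promoters of the members were searched for the p53 response element, which is a pair of 10-base half-sites. Of the 10 members, 8 had an entry in the RefSeq table of promoters (GRCm38.p6, 250 bases before to 50 after the start), and Trp53inp1 and Zmat3 did not. Among the 11 promoters of these 8 genes, 5 held a half-site without a mismatch and 3 held a full site, defined as 2 half-sites up to 13 bases apart with at most 1 mismatch in all. Over all 32851 promoters in the table, 8.36% held a half-site and 1.09% a full site. The motif is its own reverse complement, so both strands were covered, and matches may overlap. The 3 promoters with a full site belong to Cdkn1a, Ccng1 and Gtse1. They are shown 5′ to 3′ on the strand of the gene, with the bases of the half-sites in capitals: Cdkn1a at chr17:29090729-29091028 (plus strand), Ccng1 at chr11:40755237-40755536 (minus strand) and Gtse1 at chr15:85859696-85859995 (plus strand).
Cdkn1a: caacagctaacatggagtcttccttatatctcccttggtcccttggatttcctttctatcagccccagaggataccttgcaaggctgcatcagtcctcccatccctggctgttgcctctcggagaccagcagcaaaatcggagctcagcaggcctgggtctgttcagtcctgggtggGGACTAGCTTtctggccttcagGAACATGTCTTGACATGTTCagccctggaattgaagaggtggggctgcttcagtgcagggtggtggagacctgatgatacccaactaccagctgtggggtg
Ccng1: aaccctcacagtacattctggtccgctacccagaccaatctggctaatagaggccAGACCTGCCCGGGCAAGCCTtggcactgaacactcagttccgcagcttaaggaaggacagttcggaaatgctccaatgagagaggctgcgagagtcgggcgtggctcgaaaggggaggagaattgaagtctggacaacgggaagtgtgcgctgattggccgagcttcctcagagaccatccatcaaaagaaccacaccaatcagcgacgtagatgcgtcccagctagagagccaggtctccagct
Gtse1: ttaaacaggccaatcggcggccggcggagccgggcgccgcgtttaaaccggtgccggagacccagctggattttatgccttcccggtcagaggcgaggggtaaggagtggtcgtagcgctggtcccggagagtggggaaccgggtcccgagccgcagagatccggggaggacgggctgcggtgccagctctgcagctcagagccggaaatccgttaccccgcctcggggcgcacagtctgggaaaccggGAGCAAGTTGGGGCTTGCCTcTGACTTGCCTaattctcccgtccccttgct

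In Cdkn1a the site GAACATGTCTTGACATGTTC lies at positions -51 to -32 from the start, with 1 mismatch, and an upstream half-site with a spacer of 12 bases makes a longer match without a mismatch. This start is the upstream one of 2 that the table lists for the gene. In Ccng1 the site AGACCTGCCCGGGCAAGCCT lies at positions -195 to -176, with 1 mismatch, and in Gtse1 a first site lies across the start, at positions -1 to 19, and a second, which shares bases with it, lies downstream at positions 10 to 30, each with 1 mismatch. A match is a description of the letters in this window and does not show binding, and the promoters of Fas, Phlda3 and Btg2 held no half-site in it.

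In the late tumours the 10 genes did not move as a block. Fas, Sesn1, Trp53inp1 and Btg2 were higher than at day 0, and Cdkn1a, Phlda3, Gtse1, Zmat3, Ccng1 and Mdm2 were lower. By limma, with p-values adjusted over all 14319 tested genes, 4 members rose and 6 fell, so all 10 were called at 0.05. In the same comparison 46.4% of all tested genes were called, 26.3% higher and 20.1% lower. The median log2 fold change was -0.33 over the members and 0.05 over all tested genes. The calls differed in how they held up. When the spike-in set entered the fit as a block, 4 members were called, Fas and Sesn1 higher and Phlda3 and Gtse1 lower. Within the only set that holds both groups, with 2 late and 4 day 0 tumours, Fas and Sesn1 were called and no other member. The blocked and one-set fits gave the same fold changes, since late and day 0 tumours meet only in that set. They are thus 1 check, which rests on the late tumours of days 136 and 163, whose Gapdh gaps were 2.34 and 4.40.

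**Figure D1:**
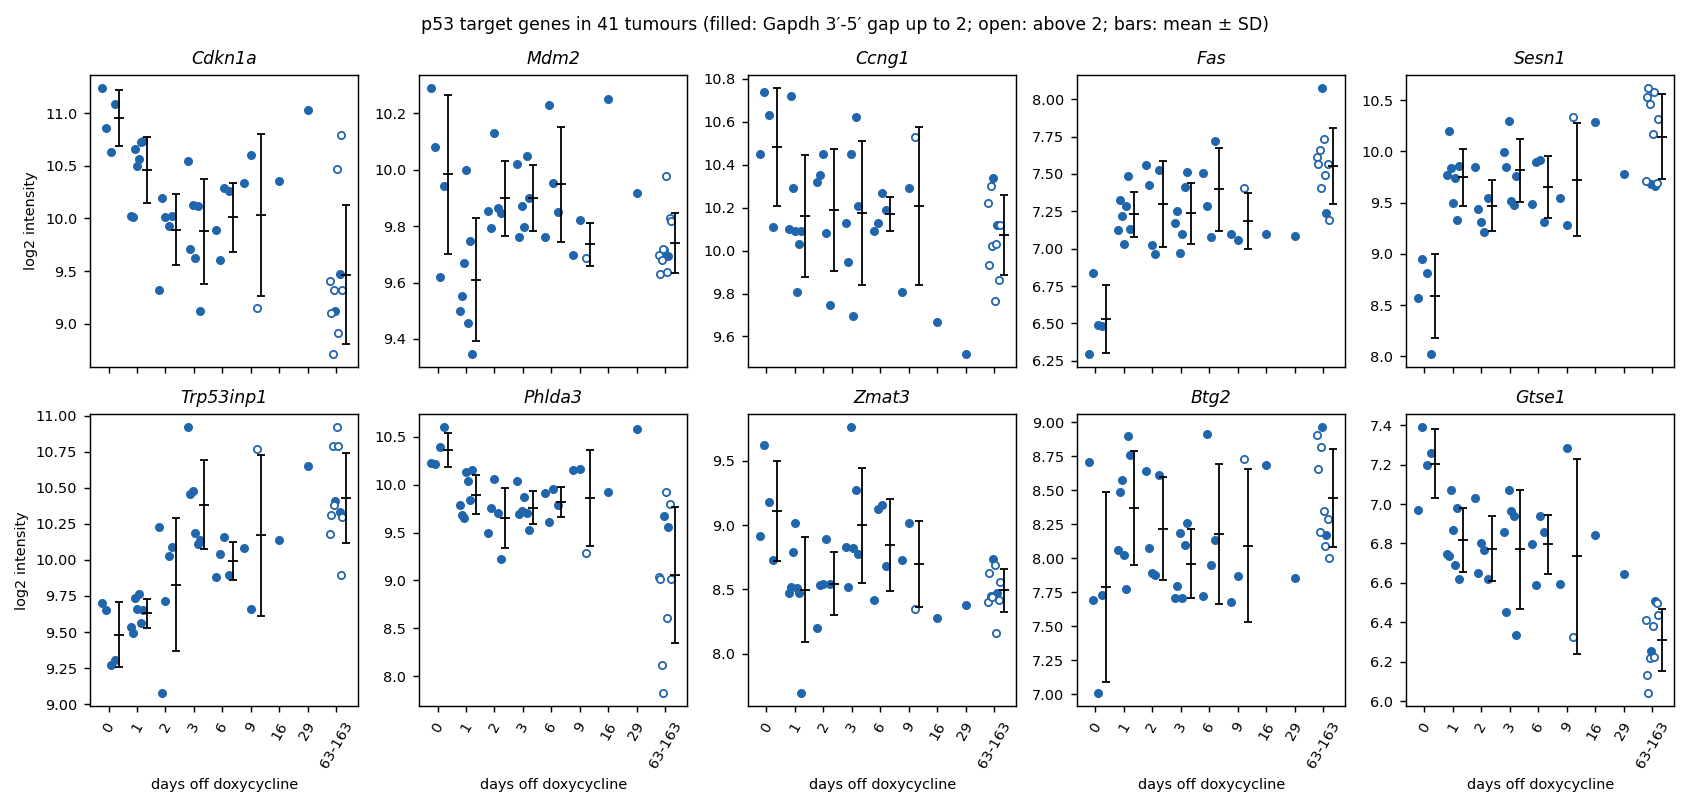
Log2 intensity (vertical axes, a scale of its own per gene) of each p53 target gene in every tumour against days off doxycycline, with day 0 on the left. Points are tumours, open where the Gapdh gap is above 2, and bars give mean ± SD. Fas and Sesn1 lie above all day 0 tumours in every later tumour, and Phlda3 lies below all day 0 tumours from day 1 to day 9 and in all late tumours.

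Cdkn1a encodes p21, the inhibitor of cyclin-dependent kinases through which p53 arrests the cell cycle. Late tumours had Cdkn1a levels between 8.72 and 10.79 with a median of 9.32, against 11.24, 10.86, 10.63 and 11.09 at day 0. Of the 10 late tumours, 9 lay below the lowest day 0 tumour, and the one above it was from day 136. The late mean was 9.46 ± 0.66 (SD, n = 10) against 10.95 ± 0.27 at day 0 (SD, n = 4), a log2 fold change of -1.49 ± 0.29 (SE), which is 0.356 times the day 0 level (limma adjusted p = 7.55e-05). The second probe set of the gene fell by 2.70 (adjusted p = 9.90e-06 over all probe sets). The fall was -0.90 with the spike-in sets blocked (adjusted p = 0.0916) and -1.10 with the Gapdh gap as a covariate (adjusted p = 0.0220).

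Cdkn1a was also lower at days 2 and 3. With the spike-in sets blocked neither day was called, at -0.37 ± 0.70 (SE; limma adjusted p = 0.866) and -0.39 ± 0.70 (SE; adjusted p = 0.839). Neither day shares a spike-in set with day 0, so the blocked fit cannot separate day from set. At day 1 the levels of Cdkn1a ran from 10.01 to 10.74 with a median of 10.56, which overlaps day 0. The day 1 difference was not called (log2 fold change -0.49, adjusted p = 0.291). Day 2 tumours had 9.32, 9.93, 10.01, 10.02 and 10.19, all below day 0 (log2 fold change -1.06, adjusted p = 0.0238). Day 3 tumours ran from 9.12 to 10.55 with a median of 9.92, again all below day 0 (-1.08, adjusted p = 0.0129). At day 6 the 4 tumours had 9.61, 9.89, 10.26 and 10.29, and at day 9 the 3 tumours had 9.15, 10.34 and 10.60, all below day 0, but neither difference was called (adjusted p = 0.0627 and 0.135). The single day 29 tumour had 11.03, within the day 0 range. The second probe set had -1.11 at day 2 and -1.17 at day 3 and was not called (adjusted p = 0.124 and 0.0752 over all probe sets). The day 2 call was lost without day 0 replicate 1 (-0.97, adjusted p = 0.0766), day 0 replicate 4 (-1.02, adjusted p = 0.0692) or day 2 replicate 1 (-0.92, adjusted p = 0.0632).

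Phlda3 encodes a small pleckstrin homology protein that competes with Akt for membrane lipids. Late tumours ran from 7.82 to 9.92 with a median of 9.03, against 10.23, 10.22, 10.39 and 10.60 at day 0, with no overlap. The late mean was 9.05 ± 0.71 (SD, n = 10) and the day 0 mean 10.36 ± 0.18 (SD, n = 4), a log2 fold change of -1.30 ± 0.25 (SE; 0.405 times; limma adjusted p = 7.62e-05). Every tumour of days 1, 2, 3, 6 and 9 also lay below all 4 day 0 tumours. Those differences were smaller, from -0.46 at day 1 to -0.71 at day 2, and were not called (adjusted p from 0.0843 to 0.391). In a fit of the compared groups alone, the differences at days 1, 2, 3 and 6 were called (adjusted p = 0.0366, 0.0307, 0.00683 and 0.0255).

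The size of the late difference of Phlda3 depended on how RNA quality was treated. With the Gapdh gap as a covariate its late fall was -0.50 (adjusted p = 0.115). In the 2 late tumours with a small gap, of 0.61 and 0.29, Phlda3 had 9.67 and 9.56, and the fall over these 2 alone was -0.75 (adjusted p = 0.00284). Against day 1 the late fall was -0.84 (adjusted p = 0.00107), but -0.06 with the gap as a covariate (adjusted p = 0.865) and -0.29 without tumours of a gap above 2 (adjusted p = 0.203).

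**Figure D2:**
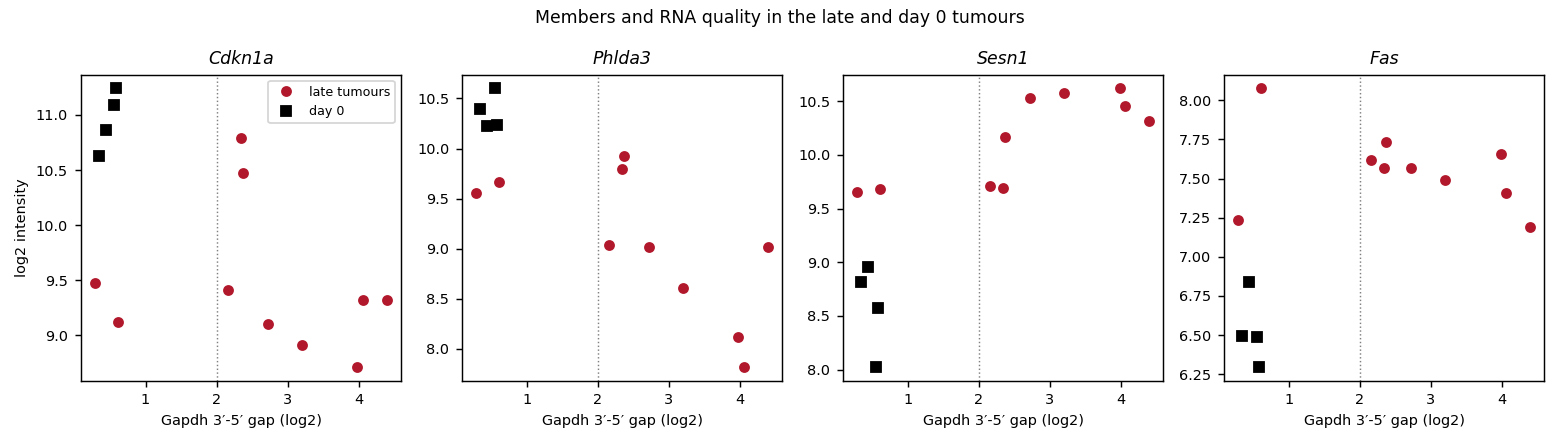
Log2 intensity of Cdkn1a, Phlda3, Sesn1 and Fas (vertical axes) against the Gapdh 3′ to 5′ gap in log2 (horizontal axes) in the 10 late tumours (circles) and the 4 day 0 tumours (squares); the dotted line marks a gap of 2. The 2 late tumours left of the line have Phlda3 at 9.67 and 9.56, below all day 0 tumours, and Fas at 8.08 and 7.24, above all of them.

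Gtse1 encodes a microtubule-associated protein of the G2 and M phases that, in human cells, binds p53 and moves it out of the nucleus. Late tumours had 6.04 to 6.51 with a median of 6.32, against 6.97, 7.39, 7.20 and 7.26 at day 0, with no overlap. The log2 fold change was -0.89 ± 0.13 (SE; 0.538 times; limma adjusted p = 2.31e-06), and it was -0.74 with the spike-in sets blocked (adjusted p = 0.00504) and -0.70 with the gap as a covariate (adjusted p = 0.00220). The genes of mitosis fell in the same tumours, 20 of 23 being called lower with a median of -1.13, among them Aurka (-1.46), Plk1 (-1.87) and Foxm1 (-0.57). Of all tested genes, 20.1% were lower there. Mki67, which marks proliferating cells, fell by 0.87 (adjusted p = 0.0298).

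Early after withdrawal the difference of Gtse1 lay nearer to 0. It was -0.43 at day 2 (adjusted p = 0.0462) and -0.44 at day 3 (adjusted p = 0.0287), and between -0.39 and -0.47 at days 1, 6 and 9, where it was not called. The day 2 call was lost when any 1 of 7 of the 9 tumours was left out, with adjusted p up to 0.126 without day 0 replicate 2, and the day 3 call with any 1 of 5 of 10, with adjusted p up to 0.0918. Of the mitosis genes, 1 of 23 was called lower at each of days 1, 2, 6 and 9 and 2 at day 3. Of all tested genes, 6.25%, 8.35%, 6.46% and 1.91% were lower at days 1, 2, 6 and 9 and 11.6% at day 3. These early counts are thus not a result about the mitosis genes. Among tumours of the same group, Gtse1 and the mean of the 23 mitosis genes had r = 0.35 over 39 tumours (permutation p = 0.0612; Spearman rho = 0.41, permutation p = 0.0180). Without the 2 tumours farthest from the median of the mitosis mean, r was 0.53.

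Ccng1 encodes cyclin G1, a strongly p53-induced protein that brings phosphatase 2A to Mdm2. Late tumours had 9.77 to 10.34 with a median of 10.08, against 10.45, 10.74, 10.63 and 10.11 at day 0, and the groups overlap through 1 day 0 tumour. This gave a log2 fold change of -0.41 ± 0.15 (SE, limma adjusted p = 0.0275). It was -0.47 with the Gapdh gap as a covariate (adjusted p = 0.0757) and -0.25 without tumours of a gap above 2 (adjusted p = 0.453). The other 2 probe sets of the gene fell by 0.61 and 0.56 (adjusted p = 0.0169 and 0.0135 over all probe sets). The call was lost without day 0 replicate 1 (-0.42, adjusted p = 0.0514), replicate 2 (-0.32, adjusted p = 0.124) or replicate 3 (-0.36, adjusted p = 0.0889). At days 1 to 9 the differences of the main probe set lay between -0.32 and -0.27 and were not called. The other 2 probe sets were called lower at day 1 (-0.69 and -0.62, adjusted p = 0.0338 and 0.0311 over all probe sets), lay between 0.10 and 0.24 at days 2, 3 and 6, and had -0.61 and -0.57 at day 9, not called.

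Mdm2, the ubiquitin ligase that degrades p53, had the smallest late change among the members. Late tumours had 9.63 to 9.98 with a median of 9.71, against 10.29, 10.08, 9.62 and 9.94 at day 0. The groups overlap, and the log2 fold change was -0.24 ± 0.10 (SE; limma adjusted p = 0.0467). This call was lost in 10 of 14 fits that left out 1 tumour, with a log2 fold change between -0.37 and -0.14 and an adjusted p of 0.300 without day 0 replicate 1, and also with arrays centred on their medians (-0.19, adjusted p = 0.140). The call was lost too with the Gapdh gap as a covariate (-0.22, adjusted p = 0.210) and without tumours of a gap above 2 (-0.28, adjusted p = 0.206). The second probe set had 6.55 to 8.08 in late tumours against 8.13 to 8.74 at day 0, without overlap, and fell by 0.84 (adjusted p = 0.00132 over all probe sets). At day 1 the main probe set had a median of 9.55, with 6 of 7 tumours up to 9.75, and fell by 0.37 (adjusted p = 0.0179), a call lost without day 0 replicate 1 (-0.27, adjusted p = 0.121) or day 0 replicate 2 (-0.34, adjusted p = 0.0543). At day 1 the second probe set fell by 0.87 (adjusted p = 0.00869 over all probe sets). At days 2, 3 and 6 the difference of the main probe set lay between -0.09 and -0.04 and that of the second between 0.05 and 0.19, and neither was called. At day 9 the main probe set had -0.25 (limma adjusted p = 0.27). The second had -0.72 (adjusted p = 0.106 over all probe sets), with all 3 tumours below day 0. With the mean of the probe sets Mdm2 was called lower at day 9 (-0.43, adjusted p = 0.0483).

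Zmat3 encodes a zinc finger protein that binds RNA and acts in p53-dependent growth control. Late tumours had 8.16 to 8.74 with a median of 8.46, against 8.92, 9.62, 9.18 and 8.73 at day 0, and the groups overlap at 1 day 0 tumour. This made a log2 fold change of -0.62 ± 0.19 (SE, limma adjusted p = 0.00889), and -0.45 without day 0 replicate 2 (adjusted p = 0.0802). It was -0.44 with the Gapdh gap as a covariate (adjusted p = 0.1865) and -0.51 without tumours of a gap above 2 (adjusted p = 0.230). At day 1 it was -0.61 (adjusted p = 0.0396), and this call was lost in 8 of 11 fits that left out 1 tumour, with adjusted p up to 0.181 without day 0 replicate 2. The differences at days 2, 3, 6 and 9 were not called.

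Among the genes that were higher, Fas, the death receptor of the cell surface, stood above day 0 in every tumour off doxycycline. Late tumours had 7.19 to 8.08 with a median of 7.57, against 6.30, 6.84, 6.49 and 6.49 at day 0. The log2 fold change was 1.03 ± 0.14 (SE; 2.04 times; limma adjusted p = 4.76e-07), 0.85 within the spike-in set that holds both groups (adjusted p = 0.0235), and 1.07 with the Gapdh gap as a covariate (adjusted p = 5.91e-05). The rise was there by day 1, when tumours had 7.03 to 7.49 with a median of 7.22 (log2 fold change 0.70, adjusted p = 0.00158). It was 0.77 at day 2, 0.71 at day 3, 0.87 at day 6 and 0.66 at day 9, with adjusted p = 0.00110, 0.00108, 7.48e-04 and 0.0245. The day 9 call was lost without day 0 replicate 1, day 0 replicate 4, day 9 replicate 1 or day 9 replicate 3, with log2 fold changes of 0.58, 0.64, 0.70 and 0.55.

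Sesn1 encodes sestrin 1, which restrains mTORC1 signalling under stress and is a target of both p53 and FOXO factors. It had the largest rise among the members. Late tumours had 9.66 to 10.62 with a median of 10.25, against 8.57, 8.95, 8.82 and 8.03 at day 0, with no overlap. The log2 fold change was 1.55 ± 0.21 (SE; 2.93 times; limma adjusted p = 4.99e-07), 1.41 within the shared spike-in set (adjusted p = 0.0318) and 0.97 with the Gapdh gap as a covariate (adjusted p = 0.00146). Its other 3 probe sets rose by 1.40, 1.56 and 0.69 (adjusted p = 3.35e-05, 2.89e-07 and 2.57e-05 over all probe sets). The last of these is dim, with means of 5.02 at day 0 and 5.71 late, where the 40th percentile of an array is 5.67.

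By day 1 Sesn1 was at 9.33 to 10.20 with a median of 9.77, all 7 tumours above day 0 (log2 fold change 1.15, adjusted p = 7.48e-04). It was 0.88 at day 2, 1.22 at day 3, 1.06 at day 6 and 1.13 at day 9, with adjusted p = 0.0106, 2.91e-04, 0.00463 and 0.0130, and no tumour of these days overlapped day 0. Without day 0 replicate 4 the value was 0.69 at day 2 (adjusted p = 0.0728) and 0.94 at day 9 (adjusted p = 0.0693), and without day 9 replicate 3 it was 0.82 at day 9 (adjusted p = 0.245). Late tumours against day 1 differed by 0.40 (adjusted p = 0.0526), and by -0.17 with the Gapdh gap as a covariate (adjusted p = 0.551).

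Trp53inp1 encodes a nuclear protein that promotes autophagy and p53-dependent cell death. Late tumours had 9.90 to 10.92 with a median of 10.36, against 9.70, 9.65, 9.27 and 9.31 at day 0, with no overlap. The log2 fold change was 0.95 ± 0.18 (SE; 1.93 times; limma adjusted p = 7.22e-05), 0.77 with the gap as a covariate (adjusted p = 0.0138) and 0.62 with the spike-in sets blocked (adjusted p = 0.0707). Unlike Fas and Sesn1 it was not called at day 1, when tumours had 9.50 to 9.77 with a median of 9.65 (0.15, adjusted p = 0.669). Day 3 tumours had 10.11 to 10.92 with a median of 10.32, all above day 0 (0.90, adjusted p = 0.00156). At days 2, 6 and 9 the differences were 0.35, 0.51 and 0.69 and were not called. The second probe set of the gene went the other way in late tumours: it had 5.42 to 6.29 there and 5.83 to 6.16 at day 0, and fell by 0.31 (adjusted p = 0.0144 over all probe sets). It is dim, with a late mean of 5.71 where the 40th percentile of an array, the filter level, is 5.67. Of the probe sets that name 1 gene, 38.5% lie below its mean, against 93.9% for the main probe set. The mean of both probe sets was higher by 0.32 (adjusted p = 0.0117).

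Btg2 encodes an antiproliferative protein that brings the CCR4-NOT deadenylase to mRNAs, and it is also an immediate early gene. Late tumours had 8.001 to 8.963 with a median of 8.32, against 8.71, 7.70, 7.01 and 7.73 at day 0. The day 0 tumours were widely spread and the highest of them lay within the late range. On average Btg2 was higher by 0.66 ± 0.25 (SE, limma adjusted p = 0.0296), and the call was lost without day 0 replicate 2 (0.63, adjusted p = 0.0711), replicate 3 (0.40, adjusted p = 0.223) or replicate 4 (0.64, adjusted p = 0.0677). The call was lost too with the Gapdh gap as a covariate (0.62, adjusted p = 0.158) and without tumours of a gap above 2 (0.78, adjusted p = 0.117). The second probe set had 6.70 to 8.97 in late tumours and 7.54 to 9.12 at day 0, with a log2 fold change of -0.53 that was not called (adjusted p = 0.198). With the mean of both probe sets the difference was 0.06 (adjusted p = 0.851), so the direction of Btg2 rests on the choice of probe set.

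**Figure D3:**
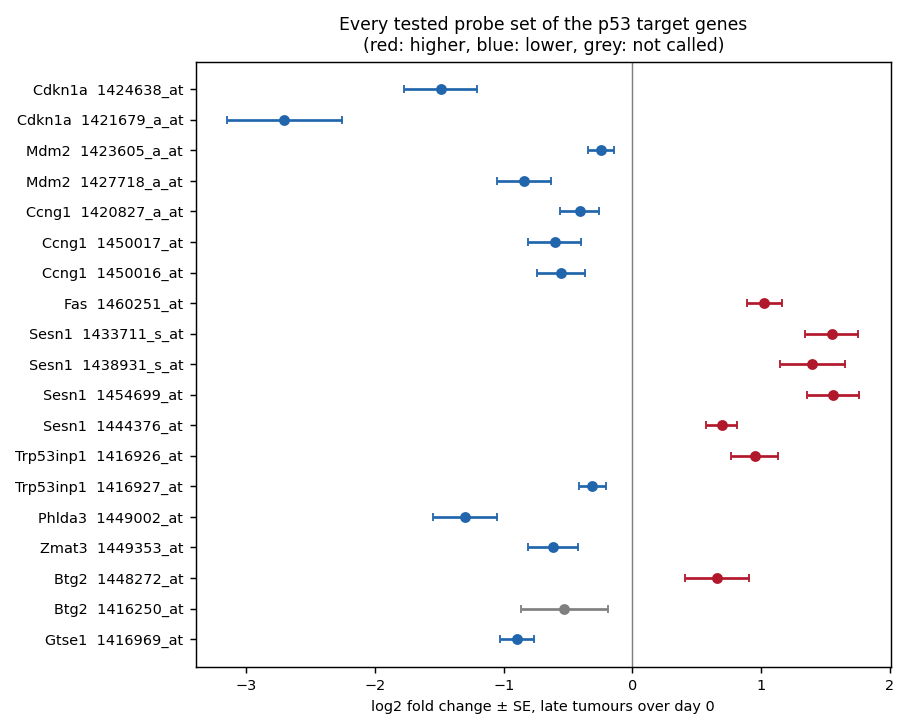
Log2 fold change ± SE of every tested probe set of the members (rows), late tumours over day 0, red where called higher, blue where called lower and grey where not called. Of the 19 probe sets 7 are higher and 11 lower, where 23.7% of all tested probe sets were higher and 24.9% lower (48.6% called). The 2 probe sets of Trp53inp1 and those of Btg2 point in opposite directions, and the lower one of Trp53inp1 lies near the filter level.

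Over the first 3 days after withdrawal, 4 to 5 of the 10 members were called, and 2 at days 6 and 9. At day 1, Fas and Sesn1 rose and Mdm2 and Zmat3 fell, 4 of 10 members where 13.8% of all tested genes were called (7.57% higher, 6.25% lower). At day 2, Fas and Sesn1 rose and Cdkn1a and Gtse1 fell (15.1% of all genes called, 6.74% higher and 8.35% lower). At day 3 Trp53inp1 joined the genes that rose, which made 5 of 10 (21.3% of all genes called, 9.74% higher and 11.6% lower). At day 6 and at day 9 Fas and Sesn1 were the only members called, where 12.2% of all genes were called at day 6 (5.74% higher, 6.46% lower) and 4.56% at day 9 (2.65% higher, 1.91% lower). These comparisons share the 4 day 0 tumours. No spike-in set held both day 0 and any of days 1, 2, 3 and 6, so day and set cannot be told apart there. With the set as a block 0 members were called at each of these 4 days. That fit links day 0 to these days only through the 2 late tumours of the third set. For days 2, 3 and 6 the link also needs the 1 day 1 tumour of the first set. The blocked fit therefore cannot separate day from set either. Under the block Fas had log2 fold changes of 0.51, 0.78, 0.72 and 0.88 at these days (limma adjusted p from 0.149 to 0.290) and Sesn1 1.03, 1.00, 1.35 and 1.18 (adjusted p from 0.0604 to 0.374). The other calls of these days had values of -0.37 at day 2 and -0.39 at day 3 for Cdkn1a, -0.30 at both days for Gtse1, 0.45 at day 3 for Trp53inp1, and -0.33 for Mdm2 and -0.71 for Zmat3 at day 1 (adjusted p from 0.155 to 0.866). Day 9 and day 0 lie in 1 set, and a fit of that set alone gave Fas 0.66 and Sesn1 1.13, as large as before, with adjusted p = 0.176 and 0.188.

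**Figure D4:**
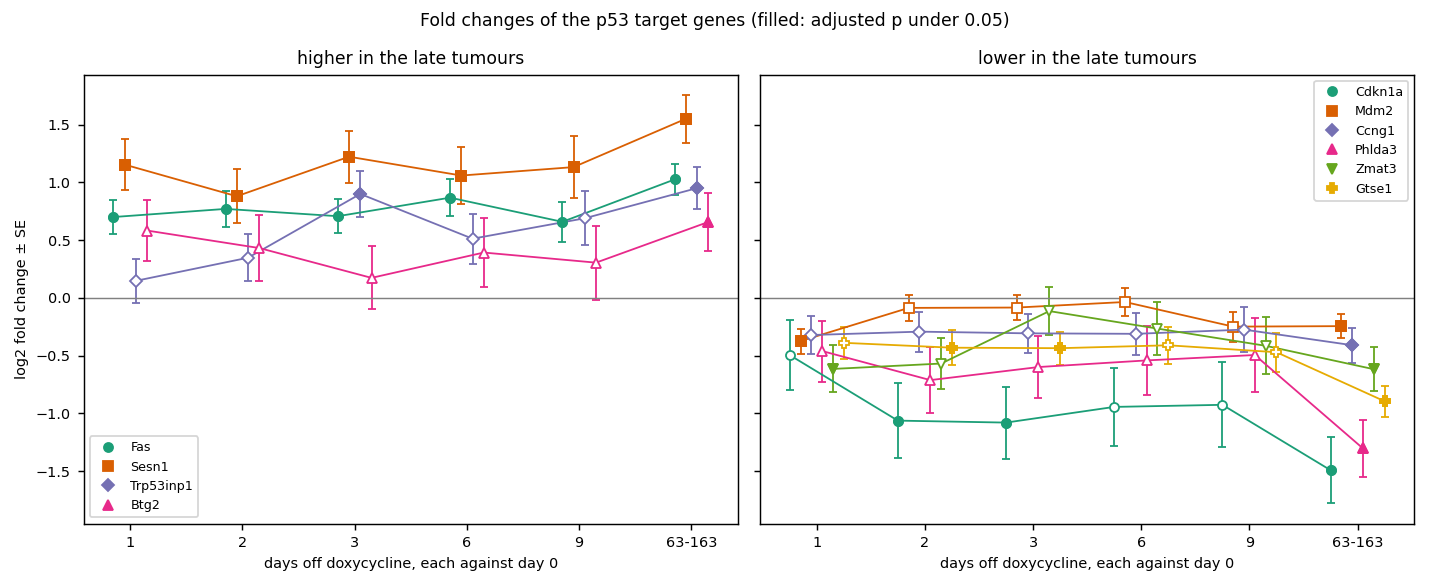
Log2 fold change ± SE against day 0 (vertical axis) for each time after withdrawal (horizontal axis), members that were higher in the late tumours on the left and those that were lower on the right; filled symbols have an adjusted p under 0.05. Sesn1 and Fas are filled at every time, and Cdkn1a is filled at days 2 and 3 and in the late tumours.

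Markers of macrophages and of T and NK cells were higher at days 1, 2, 3 and 6, when Fas and Sesn1 were also called. Of 11 tested macrophage markers, 7 rose at day 1, 7 at day 2, 8 at day 3 and 8 at day 6. Of all tested genes, 7.57%, 6.74%, 9.74% and 5.74% were higher at these days. At day 9, 1 macrophage marker and 2 T and NK cell markers rose, where 2.65% of all tested genes were higher. In late tumours 1 macrophage marker rose and 2 fell, the latter a share near the 20.1% of all tested genes that were lower. The mean macrophage marker level was 8.49 to 9.85 at day 0, 10.04 to 10.68 at day 1, 10.43 to 10.81 at day 3 and 8.60 to 9.75 in late tumours. Of 11 T and NK cell markers, 10 rose at day 1, 5 at day 2, 8 at day 3 and 3 at day 6. Their median log2 fold change was 1.77 at day 1 and 0.11 in late tumours, while that of Fas was 0.70 and 1.03 and that of Sesn1 1.15 and 1.55. Of 7 B and plasma cell markers 2 rose at day 1, and of 6 neutrophil markers 1 rose. Of 7 Schwann cell and nerve markers, 6 rose in late tumours with a median of 4.13, and their mean level was 10.62 to 11.76 there against 7.29 to 9.17 at day 0. Of the markers of other tissues, 4 of 8 endothelial markers rose (median 0.73), 4 of 8 fibroblast markers (0.38), 3 of 10 keratinocyte markers (1.75), 3 of 8 skeletal muscle markers (1.39) and 2 of 4 tested adipocyte markers (1.72) in late tumours, where 26.3% of all tested genes rose. The part of these cells in the levels of the members was not tested.

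Comparing late tumours with day 1 sets aside day 0 and lies mostly within 1 spike-in set, which holds 8 late and 6 day 1 tumours. Fas and Trp53inp1 were higher and Cdkn1a, Phlda3 and Gtse1 lower in the late tumours, 5 of 10 members where 51.7% of all tested genes were called (28.9% higher, 22.8% lower). The members' median was 0.04 and that of all genes 0.06. Trp53inp1 was higher by 0.80 (limma adjusted p = 5.06e-05) and Gtse1 lower by a log2 fold change of -0.51 (adjusted p = 2.89e-04), and for both every late tumour lay beyond every day 1 tumour. The dim second probe set of Trp53inp1 had -0.06 (adjusted p = 0.581 over all probe sets), and the mean of its probe sets 0.37 (adjusted p = 6.56e-04). Cdkn1a had a log2 fold change of -0.996 (adjusted p = 7.71e-04) and Fas one of 0.33 (adjusted p = 0.0163). Within the second spike-in set alone the same 5 members were called, with Cdkn1a at -1.14 and Trp53inp1 at 0.89. With the Gapdh gap as a covariate Trp53inp1 alone was called (0.63, adjusted p = 0.0229). Mdm2, Ccng1, Zmat3 and Btg2, with log2 fold changes between -0.09 and 0.13, did not pass the test.

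The late tumours span days 63 to 163. Against day 0, Cdkn1a had a log2 fold change of -1.82 in the 5 tumours of days 63 and 77 and -1.16 in the 5 of days 90 to 163, and Phlda3 had -1.63 and -0.98. The members that rose had Fas at 1.14 and 0.92, Sesn1 at 1.61 and 1.49 and Trp53inp1 at 0.93 and 0.97 in the earlier and later days. Btg2 had 0.92 (adjusted p = 0.00588) in the earlier days and 0.39 in the later ones, where it was not called (adjusted p = 0.261). Of the other members that fell, Mdm2 was called in the earlier days alone (-0.30 and -0.19) and Ccng1 in the later days alone (-0.32 and -0.50). The difference between earlier and later days was not tested.

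Members also varied together among tumours of 1 group. Of the 45 pairs, after removing group means over 39 tumours, 3 had a permutation p under 0.05 after Benjamini-Hochberg adjustment over all pairs. Cdkn1a and Phlda3 went together (r = 0.62, adjusted p = 0.0293; rho = 0.60), as did Sesn1 and Trp53inp1 (r = 0.54, adjusted p = 0.0293; rho = 0.53), while Sesn1 and Phlda3 were opposed (r = -0.58, adjusted p = 0.0293; rho = -0.61). Without the 2 tumours farthest from the median, r was 0.48, 0.48 and -0.55. With the Gapdh gap regressed out, r was 0.60, 0.53 and -0.29, so the opposed pair was no longer called (adjusted p = 0.303). With the mean of each gene's probe sets, Sesn1 and Trp53inp1 had r = 0.24 and were no longer called (adjusted p = 0.436). This mean gives the dim probe sets of both genes the same weight as the others. In the 10 late tumours alone, or without them, 0 pairs passed the adjustment, with r of 0.66 and 0.61 for Cdkn1a and Phlda3.

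As a description, the genes whose levels followed each member most closely within groups were listed over 39 tumours by Pearson r. These tumours also share spike-in sets and degrees of RNA quality, so r is not a measure of the 2 genes alone. For Cdkn1a these were Txnl4a (0.86), Ubxn4 (0.85) and Sdc4 (0.85), for Phlda3 Mtfr1l (0.89), Mgat4b (0.86) and P4hb (0.85), and for Sesn1 Abca9 (0.86), Ccdc80 (0.82) and Tril (0.81). Trp53inp1 went with Klhl24 (0.79), Crebrf (0.74) and Rmnd5a (0.70), Btg2 with Mxd1 (0.81), Klra17 (0.77) and Sorl1 (0.71), and Zmat3 with Lrig1 (0.81), Pcdh19 (0.78) and Cacnb2 (0.77). Gtse1 went with H2ax (0.77), Ogfr (0.73) and Plk1 (0.73). For Ccng1, Mdm2 and Fas the highest values were 0.79 with Mtif2, 0.71 with Kansl2 and 0.66 with Tlr6. No other member was among these genes.

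Other p53 targets also moved in both directions. The counts of these lists stand beside the 26.3% of all tested genes that were higher and the 20.1% that were lower, and a share near these is not a result about a list. In late tumours against day 0, DNA repair and nucleotide supply targets were mostly higher: 5 of 8 rose and 1 fell, with a median log2 fold change of 0.59. Rrm2b, a subunit of ribonucleotide reductase, rose by 1.02 (adjusted p = 1.87e-06), Ddb2, which finds ultraviolet damage, by 0.77 (9.36e-06) and Gadd45a by 1.41 (5.01e-05), while Polk, a translesion polymerase, fell by 0.39 (0.0383). Of 8 cell death targets 3 fell and none rose, the called ones being Apaf1 (-0.59), Pidd1 (-0.32) and Aen (-0.51). Of 8 targets in metabolism, redox balance and autophagy 2 fell: Sesn2, the paralogue of Sesn1, by 1.69 (4.01e-06) and Ak1 by 1.18 (2.28e-05), a share near that of all genes. Of 10 targets in the cell cycle and signalling 4 fell, among them Plk3 (-1.33), Psrc1 (-0.96) and Plk2 (-0.87), and none rose.

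**Figure D5:**
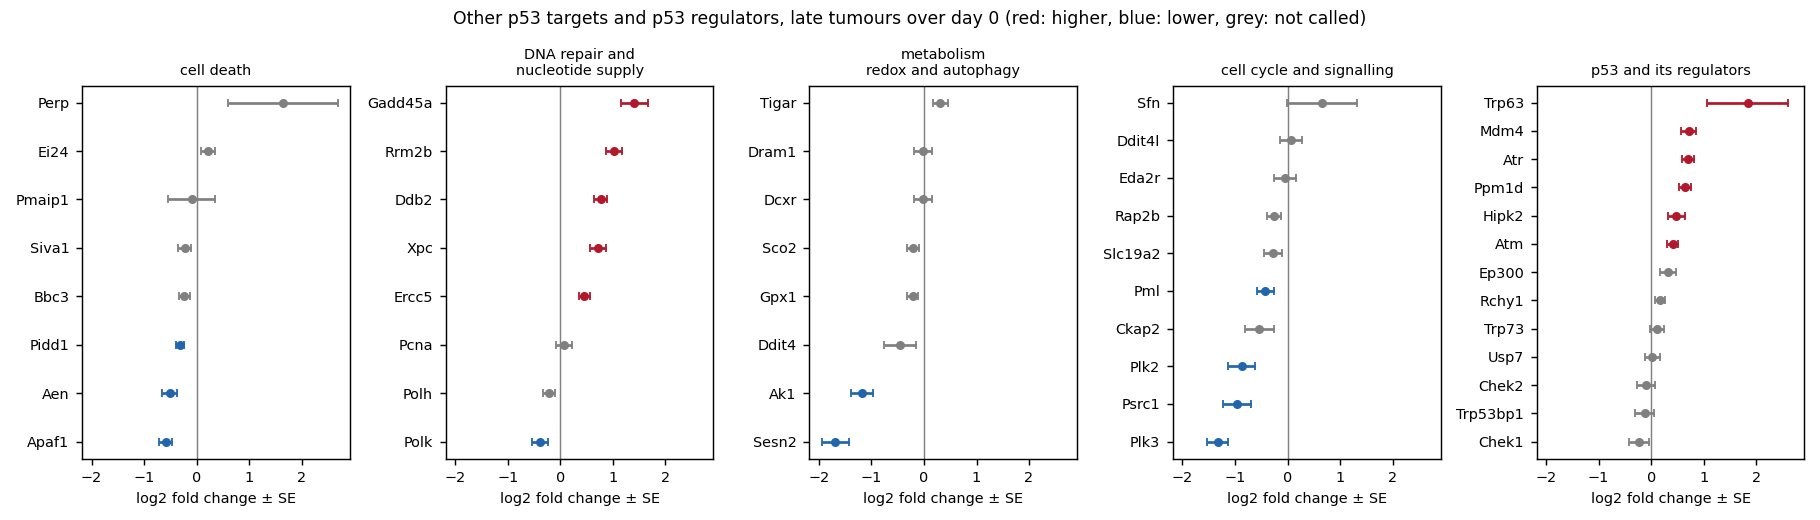
Log2 fold change ± SE, late tumours over day 0, of other p53 targets in 4 groups and of p53 relatives and regulators. Red is called higher, blue called lower and grey not called. In the second panel 5 of 8 repair genes are higher, and in the fifth 6 of 13 relatives or regulators of p53 are higher and none lower.

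Sesn1 and Sesn2 thus stood opposite each other: Sesn2 had 5.78 to 7.46 in late tumours against 7.75 to 8.09 at day 0, while Sesn1 was above day 0 in all late tumours. Of 13 tested genes listed as relatives or regulators of p53, 6 rose in late tumours and none fell. The list includes Trp63 and Trp73, and Trp63 is also among the keratinocyte markers. Atr, a kinase that signals replication stress, rose by 0.71 (adjusted p = 8.40e-06), Ppm1d, the phosphatase that switches p53 signalling off, by 0.64 (6.68e-05) and Mdm4, the partner of Mdm2 that inhibits p53, by 0.71 (1.13e-04). Mdm4 was also higher at day 3 (0.61, adjusted p = 0.00508). Among the other CDK inhibitors Cdkn2b fell by 1.77 (adjusted p = 4.04e-08) and Cdkn1b rose by 0.75 (adjusted p = 4.86e-04), beside the fall of Cdkn1a. Of 11 FOXO targets 3 rose and 2 fell, shares near those of all genes, with Pik3ip1 at 1.38 and Irs2 at -1.24, and of 15 immediate early genes 2 rose and 4 fell, with Atf3 at 1.31 and Junb at -1.79.

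Early after withdrawal, few of the other p53 targets were called. The share called lower at days 2, 3, 6 and 9 was near that of all tested genes. At day 1, 5 of the 34 tested genes in these 4 groups fell, where 6.25% of all tested genes were lower, and none rose, with Apaf1 at -0.57, Plk2 at -1.01 and Plk3 at -0.66 among them. At days 2 and 6, 4 and 3 of the 34 fell and none rose, where 8.35% and 6.46% of all tested genes were lower, which are near shares. At day 3, Aen (-0.57), Plk3 (-0.95), Plk2 (-1.07), Ak1 (-0.80) and Polh (-0.45) fell and none rose. These 5 of 34 are a share near the 11.6% of all tested genes that were lower. At day 9 Ddb2 rose by 0.64 (adjusted p = 0.0178) and Plk3 fell by 1.12 (adjusted p = 0.0102). They were the only calls of the 34, where 2.65% of all tested genes were higher and 1.91% lower. In late tumours against day 1, 5 of 8 repair targets rose, among them Ercc5 (0.74) and Rrm2b (0.85). Of 8 targets in metabolism 6 fell, among them Sesn2 (-1.02) and Ak1 (-0.91), while Tigar rose by 0.36. Of all tested genes, 28.9% were higher and 22.8% lower in that comparison.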

How the data were processed

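RNA of 41 tumours was hybridised as biotin-labelled cRNA to Affymetrix arrays, per the labels' protocols. In the deposited table each probe set has 1 linear intensity per array. Both MAS5 and RMA appear in the submitters' processing notes, and which of them made the table is not given in the sources used here. Arrays have no sequencing depth; their number limits the precision.

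Values were turned into log2(intensity + 16) and quantile normalised, so a fold change understates that of dim genes. Of 45101 probe sets, 34958 named 1 gene, 932 several and 9211 none, and the first kind was used. Of these, 34754 matched RefSeq by Entrez identifier and 0 symbols changed. The probe set with the highest mean stood for each of 18194 genes; the other probe sets of the members were fitted in a separate run over all 25803 probe sets that passed the filter. Genes above the 40th percentile of their array in at least 3 arrays were tested, 14319 in all. Group means of all 41 tumours were fitted together in limma 3.58.1 under R 4.3.3 for 7 comparisons, adjusted by Benjamini-Hochberg. Spread was shared over groups, with 32 residual and 2.58 prior degrees of freedom. Days 63 to 163 were pooled, and days 16 and 29, with 1 tumour each, entered no comparison. Spike-in sets were split at bioD 11.7 and dap 9.35 (log2). Correlations used deviations from group means with 100000 permutations within groups. Scripts were tested on simulated data with known changes. Figures were drawn with matplotlib 3.10.9.

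The named genes are all members, and of each list up to 3 called genes per direction with the lowest p. Mdm4, Ppm1d, Cdkn2a and Mki67 were named always, as were the 3 genes most like each member. Members, lists, comparisons and limits were chosen with earlier results of these data known. Alternatives covered scaling, pseudocount, filter, probe set choice, limma options, spike-in set, Gapdh gap, pooling of late days and each tumour left out.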

Additional observations from a re-analysis of the deposited data

Results flagged for a closer look

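Among 60 sets of tumours (10 members in 6 groups), 2 held a tumour far from the others of its group; chance gives about 1 in 20. Mdm2 was 10.13 in day 2 replicate 3, where the next highest tumour had 9.86. Zmat3 was 7.69 in day 1 replicate 7, where the next lowest had 8.47; without this tumour the day 1 difference of Zmat3 was -0.48 (limma adjusted p = 0.092).

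The single tumours of days 16 and 29, which entered no comparison, lay above the highest day 0 tumour for 3 members. Fas had 7.10 at day 16 and 7.09 at day 29, against a highest day 0 value of 6.84. Sesn1 had 10.29 at day 16 and 9.78 at day 29, against 8.95. Trp53inp1 had 10.14 at day 16 and 10.65 at day 29, against 9.70. With 1 tumour each these values have no replicate check.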

How the results depend on the processing

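With each gene read by its main probe set or the mean of its probe sets, no member's call reversed under any alternative. The second probe set of Trp53inp1, which lies near the filter level, was called lower late against day 0 (-0.31, adjusted p = 0.0144), against the main one. The members called numbered 4, 4, 5, 2, 2 and 10 against day 0 at days 1, 2, 3, 6, 9 and late, and 5 late against day 1. Centring arrays on medians gave 2 at day 1. Array weights gave 7 at day 1, 7 at day 6 and 1 at day 9. Fitting only the groups compared gave 5 at day 6 and 0 at day 9. The spike-in sets as a block gave 0 at days 1, 2, 3 and 6, and 4 late. One spike-in set gave 0 at day 9 and 2 late. The Gapdh gap as a covariate gave 5 at day 6, 5 late, and 1 late against day 1. Leaving out gaps above 2 gave 4 at day 6, 0 at day 9, 6 late, and 2 late against day 1. Days 90 to 163 gave 3 late against day 1. Leaving out each tumour gave 2 to 5 at day 1, 1 to 3 at day 2, 4 to 5 at day 3, 2 at day 6, 0 to 4 at day 9, 6 to 10 late, and 5 to 6 late against day 1. The lowest counts came without day 0 replicate 2 (day 1 and late), day 0 replicate 4 (days 2 and 9) or day 9 replicate 3 (day 9), and day 0 replicate 1 or day 9 replicate 1 left 1 at day 9; the highest at day 9 came without day 9 replicate 2. Pairs of members called fell to 0 in late tumours alone, without late tumours and without gaps above 2. Gtse1 with the mitosis mean passed 0.05 with the mean of probe sets (r = 0.38), without late tumours (0.58) and without gaps above 2 (0.57), and reversed to -0.059 in the 10 late tumours alone, a value that rests on 2 tumours (0.64 without the 2 farthest). The causes were not tested.

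No paired analysis was possible because the numbers of the replicates come from the order of deposit alone. The number of arrays limits the precision, with 4 at day 0 and 3 at day 9.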
